A study of Caenorhabditis elegans with 12 samples.

Results

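Whole young adult *C. elegans* of the *trxr-2(tm2047)* single mutant were compared with wild type by RNA-seq. The comparison took the 3 libraries titled trxr-2 (tm2047) III and the 3 titled wt, by title alone, which are 6 of the 12 libraries of the series. The remaining libraries are 3 of the *gsr-1a(syb266)* single mutant and 3 of the double mutant *gsr-1a trxr-2*, and they entered the fits to share 1 estimate of the spread. All animals were synchronized and collected as young adults, and polyA RNA of whole worms was made into stranded libraries. Wild type is the N2 strain. *tm2047* is described in the study as a null allele of the mitochondrial thioredoxin reductase, and *syb266* removes the first exon of *gsr-1*, which serves only its mitochondrial isoform. Both genes lie on chromosome III, and the double mutant carries both alleles. Each genotype is 1 strain, so that the mutation and any other difference of the strain cannot be told apart. The study describes the libraries as biological replicates of independent experiments. Whole worms hold intestine, muscle, hypodermis, neurons and germline, and fewer cells of a type cannot be told apart from less RNA per cell.

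Thioredoxin reductases take electrons from NADPH to reduce thioredoxin, which in turn reduces peroxiredoxins and protein disulfides. TRXR-2 is the mitochondrial form in worms and works with the thioredoxin TRX-2 and the peroxiredoxin PRDX-3, while TRXR-1 serves the cytosol. Glutathione reductase, GSR-1, keeps glutathione reduced in both compartments, and the mitochondrial unfolded protein response (UPRmt) raises chaperones such as HSP-6 and HSP-60 when mitochondrial proteins misfold. The comparison of the single mutant with wild type asks what loss of the mitochondrial thioredoxin reductase alone does to the transcriptome.

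The libraries held 12603294, 17152792 and 15568438 counts in *trxr-2* animals and 12114187, 17915928 and 19688212 in wild type, within a range of 12114187 to 19688212 over all 12 libraries. Replicate 1 stood apart in both strains. The first principal component of the 6 libraries (49.9% of the variance) put replicate 1 at -40.5 in *trxr-2* and at -59.8 in wild type, with the other 4 libraries between 15.5 and 34. The *vit* genes of yolk protein, made in the adult intestine, took 1.79% of the counts in replicate 1 of *trxr-2*, against 0.342% in that of wild type, and 5.36% to 6.78% in the other *trxr-2* libraries, against 4.51% to 4.73% in the other wild-type libraries. In replicate 1 of *gsr-1a* and the double mutant the *vit* genes took 4.28% and 3.57%. The other libraries of these strains held 4.33% to 5.0% and 3.6% to 4.14%. Because replicate 1 stood apart in *trxr-2* and wild type, results are given with all libraries, without the 4 libraries of replicate 1, and with *trxr-2* and wild type paired by replicate number. Levels are given in CPM, the counts scaled by TMM to a common library size. Genes with an adjusted p under 0.05 in edgeR's quasi-likelihood test count as called.

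*trxr-2* itself was all but absent from the mutant. The gene lies on chromosome III from 8913769 to 8916450 on the forward strand (WBcel235) and gave 0, 1 and 1 counts in the 3 *trxr-2* libraries, against 202, 240 and 264 counts in wild type. Wild type exceeded the mutant by a ratio of 289, with a counting interval of 79.8 to 2394 at 95%, and the adjusted p was 1.59e-06. *cdc-25.3*, a phosphatase gene on the other strand, overlaps the 3′ end of *trxr-2*, and the counting used the strand. Of 45 other genes tested within 100000 bases of *trxr-2*, 0 were called with all libraries (median log2 fold change -0.10, from -0.79 to 0.47), and 0 with the numbers paired. Over all genes 0.0333% were called in each direction with all libraries. The shares higher and lower were 0.596% and 0.129% with the numbers paired and 1.86% and 1.57% without replicate 1. Without replicate 1, *plg-1*, which encodes a mucin of the copulatory plug, was higher by 0.54 on the log2 scale (adjusted p = 0.0124), and the splicing factor gene *bud-13* by 0.38 (adjusted p = 0.0254). With all libraries the adjusted p was 0.836 for both, and the ranges over the alternatives were 7.26e-09 to 1 and 0.00464 to 0.999.

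With all 12 libraries, 5 of 15004 genes rose and 5 fell in *trxr-2*, which is 0.0333% of the genes tested in each direction. All 10 were also called without replicate 1 and with the numbers paired, and in none did the 3 *trxr-2* values overlap the 3 wild-type values. Groups that do not overlap were found at 1751 of all genes tested (11.7%). At an unadjusted p under 0.05 there were 877 genes, and the median log2 fold change over all genes was -0.04. DESeq2 on the same libraries called 13 higher and 8 lower, and edgeR on the 6 libraries of the 2 strains alone called 2 and 2, with *trxr-2*, *R10E4.1* and *col-92* the only ones of the 10 among them. Of the 10, 3 lie on chromosome III with *trxr-2* itself, 3 on IV, 2 on II and 2 on V.

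Besides *trxr-2*, the protein-coding genes that fell were *R10E4.1* and *ZC317.7*. *R10E4.1*, on chromosome III from 4269743 to 4272506, had 9.92, 9.79 and 10.16 CPM in *trxr-2* animals, against 45.6, 49.3 and 48.1 CPM in wild type. The 3 mutant libraries were nearly level, and the groups were far apart. The log2 fold change was -2.26 (standard error 0.15, adjusted p = 4.9e-05). *ZC317.7*, on chromosome V from 5468734 to 5471030, had 2.48, 4.2 and 3.34 CPM in *trxr-2* animals, against 12.8, 14.3 and 13.6 CPM in wild type. Its log2 fold change was -2.02 (standard error 0.18, adjusted p = 0.000682).

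A pair of pseudogenes on chromosome II fell as well, both on the forward strand. WBGene00014307, from 8784535 to 8785513, had 53.6, 31.4 and 29.1 CPM in *trxr-2* animals, against 158, 119 and 119 CPM in wild type (log2 fold change -1.80, adjusted p = 0.00565). WBGene00014309, from 8787770 to 8789716, had 351, 256 and 245 CPM in *trxr-2* animals, against 835, 738 and 737 CPM in wild type (log2 fold change -1.44, adjusted p = 0.00303). Both were lower in each of the 3 replicate pairs. The pseudogene WBGene00014308 lies between them from 8786457 to 8787119 and was picked out for its position after the values were seen. It had 21, 11 and 10.4 CPM in *trxr-2* animals, against 22, 21.4 and 21.7 CPM in wild type, so that the strains were close in replicate 1 and apart in replicates 2 and 3. It was not called with all libraries (log2 fold change -0.62, adjusted p = 0.836) and was called without replicate 1 (-0.98, adjusted p = 0.0121; range over the alternatives 5.04e-05 to 0.999).

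Among the genes that rose, *pct-1*, the gene of a PCTAIRE kinase related to the cyclin-dependent kinases, had 102, 113 and 119 CPM in *trxr-2* animals, against 56.2, 54.8 and 51.2 CPM in wild type. The spread within each strain was small beside the difference (111.5 ± 8.7 and 54.1 ± 2.58 CPM, SD, n = 3 each), and the log2 fold change was 1.04 (standard error 0.10, adjusted p = 0.000699). *col-92*, a cuticle collagen gene on chromosome III, had 139, 171 and 180.5 CPM in *trxr-2* animals, against 20.2, 30.3 and 22.4 CPM in wild type. All 3 mutant libraries were far above every wild-type library, and the difference on the log2 scale was 2.75 (standard error 0.35, adjusted p = 0.0101). *col-92* missed the threshold when *trxr-2* replicate 3, wild-type replicate 1 or wild-type replicate 3 was left out (adjusted p = 0.0533, 0.0542 and 0.118; range over the alternatives 2.05e-63 to 0.118).

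Another 3 genes, nearly silent in wild type, rose too. *msp-76*, 1 of the genes of the major sperm protein that builds the cytoskeleton of nematode sperm, gave 319, 163 and 123 counts in *trxr-2* and 0, 1 and 6 in wild type, a ratio of 105 (95% counting interval 50.9 to 263, adjusted p = 0.00515). Reads shared with other *msp* genes were left out by the counting, so that its level is uncertain. *srw-85*, of the srw family of chemoreceptors, gave 22, 15 and 27 counts in *trxr-2* and 0, 0 and 0 in wild type, which made it at least 26-fold higher when 3 counts in all are set as the floor of wild type (adjusted p = 0.0281). *Y38F2AL.12* had 1.88, 2.1 and 2.93 CPM in *trxr-2* animals, against 0.218, 0.436 and 0.536 CPM in wild type (log2 fold change 2.47, adjusted p = 0.0446). With the replicate number as a block in the fit of 12 libraries, *srw-85* and *Y38F2AL.12* were not called (adjusted p = 0.142 and 0.0889; ranges 2.98e-11 to 0.195 and 6.22e-06 to 0.299). *msp-76* missed it when wild-type replicate 2 was left out (adjusted p = 0.0538; range 9.44e-41 to 0.0621), *srw-85* without any 1 library but *trxr-2* replicate 2 (adjusted p from 0.0542 to 0.137), and *Y38F2AL.12* without any 1 of the 6 (adjusted p from 0.06 to 0.299).

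*scb-1*, named for the sensitivity of its mutants to bleomycin, narrowly missed the threshold with all libraries. It had 33.1, 19.8 and 22.1 CPM in *trxr-2* animals, against 12.11, 9.36 and 7.84 CPM in wild type. The groups did not overlap, and the log2 fold change was 1.36 (standard error 0.22, adjusted p = 0.0731). With the block it was called (adjusted p = 0.00758), as it was without replicate 1 (0.00321) and with the numbers paired (0.00767; range over the alternatives 3.22e-09 to 0.58).

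**Figure D1:**
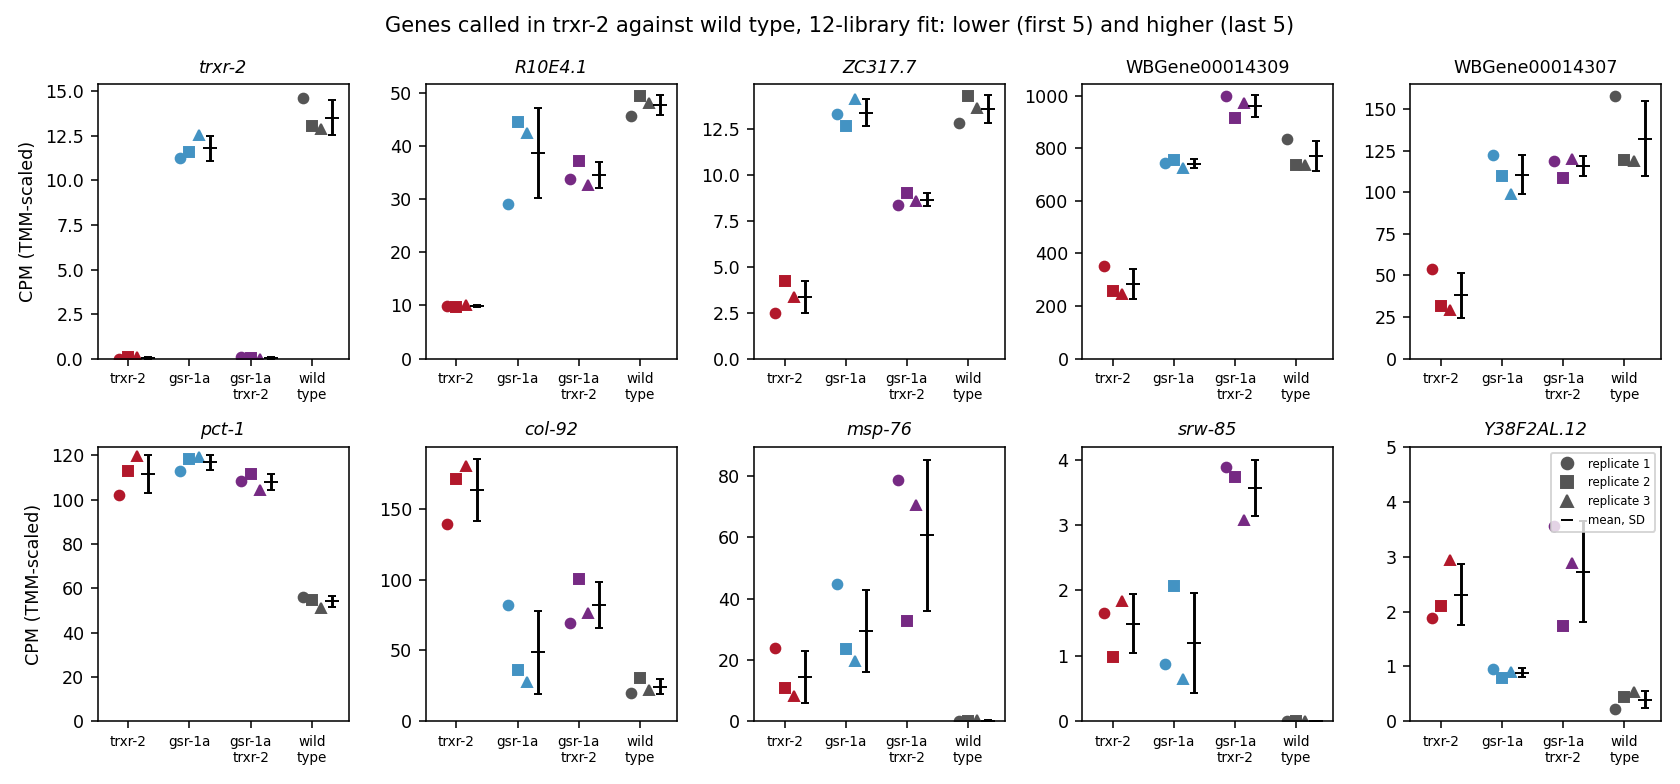
Each panel plots the level of 1 called gene in CPM on a linear axis from 0 in the 3 libraries of *trxr-2*, *gsr-1a*, the double mutant and wild type, with circles, squares and triangles for replicates 1, 2 and 3 and black bars for the mean and SD. The *trxr-2* libraries of *R10E4.1* lie at 9.79 to 10.16 CPM and those of wild type at 45.6 to 49.3 CPM, and *pct-1* is at 102 to 119 CPM in *trxr-2* and at 51.2 to 56.2 CPM in wild type.

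Whether these differences set *trxr-2* apart from the other single mutant was tested directly, in a contrast of *trxr-2* with *gsr-1a*. The wild-type means do not enter it, while the wild-type libraries share in its scaling and its estimate of the spread. Its *trxr-2* libraries are those by which the genes were called against wild type, so that it is no independent check. Of 15004 genes, 2 were higher (0.0133%) and 6 lower (0.04%) in *trxr-2* than in *gsr-1a*, where DESeq2 called 9 and 16. The 5 genes that fell against wild type were all lower than in *gsr-1a* as well. *R10E4.1* differed by -1.96 on the log2 scale (adjusted p = 0.000149), with 9.92, 9.79 and 10.16 CPM in *trxr-2* and 29.1, 44.6 and 42.4 CPM in *gsr-1a*. *ZC317.7* differed by -2.0 (adjusted p = 0.00047), with 2.48, 4.2 and 3.34 CPM in *trxr-2* and 13.3, 12.7 and 14.2 CPM in *gsr-1a*. WBGene00014309 differed by -1.38 and WBGene00014307 by -1.54 (adjusted p = 0.00373 and 0.0219). In the double mutant, which carries the same *trxr-2* allele, all 4 genes lay above the *trxr-2* single mutant in every library, at 33.8, 37.2 and 32.6 CPM for *R10E4.1*, 8.35, 9.04 and 8.59 CPM for *ZC317.7*, 997, 915 and 972 CPM for WBGene00014309 and 118, 109 and 119.8 CPM for WBGene00014307. Against wild type, *R10E4.1* and *ZC317.7* were still called lower in the double mutant (-0.46 and -0.65 on the log2 scale, adjusted p = 0.0436 and 0.0207). In that contrast 945 of 15004 genes were lower. WBGene00014309 and WBGene00014307 were not called there (0.32 and -0.19, adjusted p = 0.169 and 0.549).

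The 5 genes that rose against wild type were not called against *gsr-1a*. *pct-1* differed between the single mutants by -0.07 on the log2 scale (95% interval -0.28 to 0.14, adjusted p = 1), with 102, 113 and 119 CPM in *trxr-2* and 113, 118 and 119 CPM in *gsr-1a*. *msp-76* differed by -1.03 (interval -2.05 to -0.01, adjusted p = 0.767) and *srw-85* by 0.29 (-0.69 to 1.28, adjusted p = 1). *col-92* had the widest gap, 1.75 (1.02 to 2.49, adjusted p = 0.26), with 139, 171 and 180.5 CPM in *trxr-2* and 82.3, 35.8 and 27.8 CPM in *gsr-1a*. *scb-1* had 33.1, 19.8 and 22.1 CPM in *trxr-2* and 22.9, 23.1 and 21.1 CPM in *gsr-1a* (adjusted p = 1). In the double mutant, *pct-1* was at 108, 111.6 and 104 CPM, *scb-1* at 31.5, 23.3 and 23.2 CPM and *msp-76* at 78.8, 32.7 and 70.5 CPM. All 3 mutant strains were compared with the same wild-type libraries.

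Without the 4 libraries of replicate 1, 281 of 15112 genes rose (1.86%) and 238 fell (1.57%) in *trxr-2*. The median log2 fold change was 0.45 among the genes that rose and -0.96 among those that fell, and 10 rose and 106 fell by more than 2-fold. DESeq2 called 623 higher and 267 lower on the same libraries, a larger share higher, and a fit of *trxr-2* and wild type alone called 862 and 506. The libraries left out were then compared with each other at these genes. Of the 281 genes that rose, 265 (94.3%) were also higher in replicate 1 of *trxr-2* than in replicate 1 of wild type, beside 53.9% of all genes tested. Their median log2 ratio was 0.67 in replicate 1, 0.40 in replicate 2 and 0.42 in replicate 3. At these genes replicate 1 itself was low in *trxr-2* and wild type. Their median level was 96.4, 168 and 166 CPM in replicates 1, 2 and 3 of *trxr-2*. In wild type it was 59.9, 131.5 and 125.9 CPM. Replicate 1 was not low in the other strains, with 145, 135 and 149 CPM in *gsr-1a* and 139, 136 and 143 CPM in the double mutant. The part of the low replicate 1 of *trxr-2* and wild type in the agreement was not tested. Of the 238 that fell, 55.9% were lower in replicate 1, beside 46% of all genes, with a median log2 ratio of -0.06 in replicate 1, -0.95 in replicate 2 and -0.86 in replicate 3. In the contrast with *gsr-1a* without replicate 1, in which 12 genes were higher (0.0794%) and 8 lower (0.0529%), 7 of the 281 and 7 of the 238 were called. At the 238 genes the median log2 fold change of *gsr-1a* over wild type was -0.53, beside -0.96 for *trxr-2*. At the 281 genes it was 0.12, beside 0.45. In replicates 2 and 3 the median level of the 238 was 9.76 and 9.48 CPM in *trxr-2* and 12.5 and 12.8 CPM in *gsr-1a*. It was 8.93 and 9.47 CPM in the double mutant and 19.1 and 18.5 CPM in wild type.

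**Figure D2:**
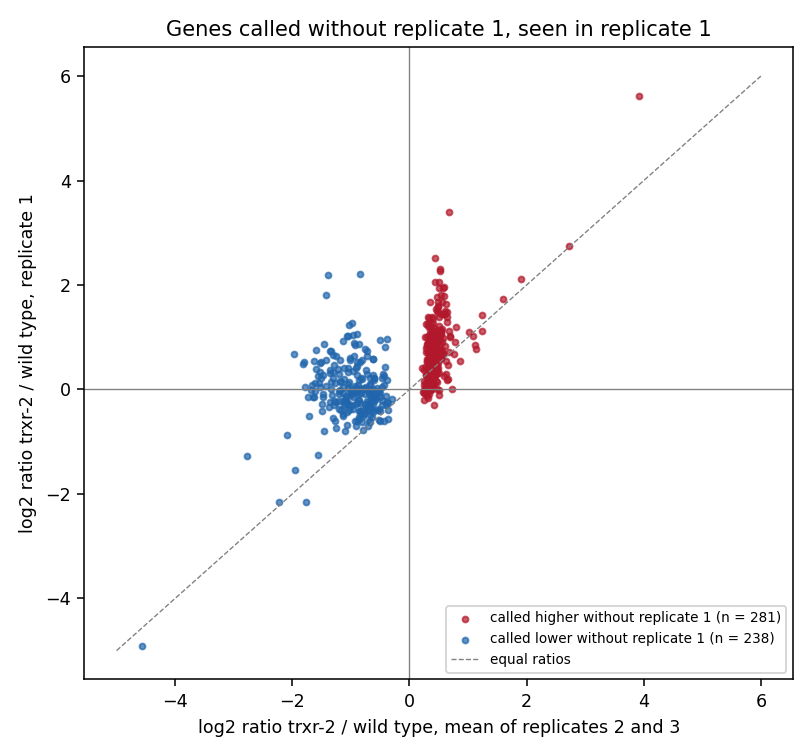
Each point is a gene called without replicate 1, with the mean log2 ratio of *trxr-2* over wild type in replicates 2 and 3 on the horizontal axis and that in replicate 1, which did not enter the fit, on the vertical axis. Red points are the 281 genes that rose, of which 265 lie above 0 in replicate 1, and blue points are the 238 that fell, which centre near 0 there with a median of -0.06.

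Without replicate 1, ribosomal protein genes held many of the genes that rose. Of 78 cytosolic ribosomal protein genes tested, 20 rose and 0 fell, beside 1.86% and 1.57% of all genes, and 75 had a positive log2 fold change (median 0.23, against -0.04 over all genes). The rise was uneven, with a median log2 ratio of 0.11, 0.06 and 0.32 in replicates 1, 2 and 3. All genes had 0.03, -0.05 and -0.07. The list took 13.36%, 9.04% and 10.46% of the counts in *trxr-2*, against 13.13%, 9.71% and 9.39% in wild type. In replicate 2 its summed level was therefore higher in *trxr-2* only after the TMM scaling. *rps-2*, of the small subunit, had 896, 1425 and 1352 CPM in *trxr-2* animals, against 644, 888 and 881 CPM in wild type. The mutant was above wild type in all 3 pairs and the groups did not overlap. Its log2 fold change was 0.68 without replicate 1 (adjusted p = 0.0281) and 0.61 with all libraries (0.836; range over the alternatives 1.89e-07 to 0.999). *rpl-7A*, *rpl-5* and *rpl-25.1*, of the large subunit, were higher by 0.60, 0.48 and 0.37 (adjusted p = 0.0248, 0.0206 and 0.025; with all libraries 0.836 for each, and ranges 1.02e-07 to 0.999, 6.23e-08 to 0.999 and 0.00108 to 0.999).

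Of 30 oocyte and maternal genes, 5 rose and 0 fell without replicate 1, where 1.86% of all genes rose and 1.57% fell, with a median of 0.23. *cpg-1*, which encodes a chondroitin proteoglycan of the eggshell, had 483, 1495 and 1355 CPM in *trxr-2* animals, against 197, 906 and 924 CPM in wild type. It was higher in each pair, by 0.67 without replicate 1 (adjusted p = 0.025) and by 0.91 with the numbers paired (0.0452), but not called with all libraries (0.852; range over the alternatives 2.4e-08 to 0.999). The other 4, named because the count is small, were *lin-41*, a regulator of oocyte growth and maturation (0.61), *cbd-1*, an eggshell protein that binds chitin (0.58), and the embryonic polarity genes *mex-5* and *mex-1* (0.46 and 0.45). *lin-41* had 119, 474 and 428 CPM in *trxr-2* animals, against 30.7, 323 and 283 CPM in wild type, and both strains were far lower in replicate 1. Of 36 genes of meiosis and P granules, the RNA granules of the germline, 5 rose and 0 fell against the same background, among them *pgl-1*, a core protein of these granules (0.47, adjusted p = 0.045; range 0.000226 to 0.999). This list took 0.350%, 0.452% and 0.484% of the counts in *trxr-2*, against 0.311%, 0.467% and 0.443% in wild type. In replicate 2 its summed level was higher in *trxr-2* only after the TMM scaling. The yolk protein genes were again higher in each pair, as *vit-1* with 1087, 5924 and 4559.7 CPM in *trxr-2* animals, against 278, 3507 and 3372 CPM in wild type (0.64, adjusted p = 0.0434; range 3e-06 to 0.999). Their part in the other changes was not tested. With all libraries, 0 genes of the ribosomal, oocyte, meiosis and yolk lists were called, beside 0.0333% of all genes in each direction.

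Among the genes that fell without replicate 1 were components of the cuticle and its precursors. Of 77 genes of cuticulins, molting factors and astacin proteases, 9 fell and 0 rose, where 1.57% of all genes fell and 1.86% rose, with a median of -0.24. The summed level of the list in replicates 2 and 3 was 859 and 931 CPM in *trxr-2*, against 1118 and 1121 CPM in wild type. It was also lower in *gsr-1a* (927 and 911 CPM) and in the double mutant (891 and 973 CPM). In replicate 1 it was 866, 855 and 933 CPM in *trxr-2*, *gsr-1a* and the double mutant, against 758 CPM in wild type. *cutl-2*, a cuticulin-like gene, had 5.71, 2.1 and 2.66 CPM in *trxr-2* animals, against 8.34, 9.15 and 8.62 CPM in wild type. The groups did not overlap, and its log2 fold change was -1.87 (adjusted p = 0.019, with all libraries 0.836; range over the alternatives 0.000192 to 0.999). *cutl-16* had 7.14, 3.74 and 4.16 CPM in *trxr-2* animals, against 6.53, 10.9 and 9.6 CPM in wild type, which overlap through replicate 1 (-1.34, adjusted p = 0.0169; range 0.00117 to 0.999). *cutl-25* had a log2 fold change of -1.18 (adjusted p = 0.0428; range 0.0171 to 0.999), and *cutl-20* missed the threshold with 2.33, 2.36 and 1.91 CPM in *trxr-2* animals, against 4.5, 5.17 and 4.34 CPM in wild type (adjusted p = 0.056; range 0.0118 to 0.959). *noah-1*, a zona pellucida domain protein of the apical extracellular matrix, was picked after its values were seen. It had 62.8, 64.1 and 75.7 CPM in *trxr-2* animals, against 34.5, 129.7 and 136 CPM in wild type, above wild type in replicate 1 and below it in replicates 2 and 3.

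Among genes with a mean of at least 1 CPM, those with the largest falls without replicate 1 that kept their sign in replicate 1 were mostly of low level. *C03C10.5* had 2.63, 0.788 and 0.818 CPM in *trxr-2* animals, against 2.97, 3.92 and 3.75 CPM in wild type. It was also low in *gsr-1a* (0.522, 1.22 and 1.17 CPM) and in the double mutant (1.64, 0.325 and 1.11 CPM). In *C40A11.3* the values were 3.68, 0.854 and 1.23 CPM in *trxr-2* animals, against 3.7, 4.63 and 4.24 CPM in wild type. They were 1.22, 3.18 and 3.67 CPM in *gsr-1a* and 1.51, 1.73 and 1.97 CPM in the double mutant. *ttr-52*, whose product marks dying cells for engulfment, had 1.05, 0.526 and 0.273 CPM in *trxr-2* animals, against 1.38, 1.91 and 2.1 CPM in wild type. In all 3 the replicate 1 pair differed far less than the other pairs. Their log2 fold changes were -2.21, -2.05 and -2.27 without replicate 1 (adjusted p = 0.0322, 0.0107 and 0.0425), and with all libraries none was called (adjusted p = 0.836 for each; ranges 0.00351 to 0.999, 0.00117 to 0.999 and 0.0127 to 0.999). Below that level, *C02F5.2*, on chromosome III from 8249619 to 8250193 and named after its values were seen, gave 0 counts over the 3 *trxr-2* libraries, against 27 over those of wild type. With 3 counts in all as the floor of *trxr-2* it was at least 7.38-fold lower, and it was called without replicate 1 (adjusted p = 0.0461; range 0.0461 to 0.959), while the filter on low counts removed it with all libraries and with the numbers paired. It gave 34 counts in *gsr-1a* and 5 in the double mutant. Among the genes that rose by the most, *dyf-3*, needed for sensory cilia, had 3.76, 3.94 and 4.37 CPM in *trxr-2* animals, against 1.6, 1.91 and 1.51 CPM in wild type, with a difference in every pair and no overlap (1.31, adjusted p = 0.0365; with all libraries 0.361, range 0.00813 to 0.959). The pseudogenes WBGene00014954 and WBGene00014955 on chromosome V rose by 1.22 and 1.29 (adjusted p = 0.0143 and 0.00385; ranges 1.59e-05 to 0.999 and 1.13e-11 to 0.999), the second with 21.2, 40.4 and 35.7 CPM in *trxr-2* animals, against 9.43, 17.5 and 14.4 CPM in wild type. The second was at 40.7, 30.9 and 37.8 CPM in *gsr-1a* and at 48, 41.3 and 43.9 CPM in the double mutant. Neither was called against *gsr-1a*, with log2 differences of -0.26 (interval -0.96 to 0.44) and -0.17 (-0.70 to 0.37).

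F-box genes, which encode substrate receptors of ubiquitin ligases, had a median below that of all genes in every pair. Of 220 tested with all libraries 0 were called, beside 0.0333% of all genes in each direction. A negative log2 fold change was found in 176, and the median was -0.26, against -0.04 over all genes. The median log2 ratio was -0.20, -0.28 and -0.24 in replicates 1, 2 and 3, where all genes had 0.03, -0.05 and -0.07. Without replicate 1, 7 of 220 fell and 0 rose, where 1.57% of all genes fell and 1.86% rose. *fbxc-40* had 7.44, 5.26 and 5.8 CPM in *trxr-2* animals, against 10.22, 11.7 and 12.6 CPM in wild type, lower in every pair without overlap (-1.10, adjusted p = 0.025; range over the alternatives 0.00324 to 0.999). *fbxb-66* had 4.89, 4.07 and 5.12 CPM in *trxr-2* animals, against 6.53, 11.9 and 10.48 CPM in wild type (-1.25, adjusted p = 0.025; range 0.00181 to 0.999).

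A group of inducible heat shock genes was low in all *trxr-2* libraries and in wild-type replicate 1, and high in wild-type replicates 2 and 3. *hsp-16.41*, a small heat shock protein gene, had 1.2, 1.64 and 2.66 CPM in *trxr-2* animals, against 3.63, 20.4 and 14.6 CPM in wild type. The groups did not overlap. It was called without replicate 1 (-2.99, adjusted p = 0.025) and with the numbers paired (-2.60, adjusted p = 0.0163), not with all libraries (0.836; range 2.66e-08 to 0.999). *hsp-16.2* had 1.95, 2.69 and 4.84 CPM in *trxr-2* animals, against 3.99, 20.7 and 14.1 CPM in wild type and was called in the same 2 fits (adjusted p = 0.0299 and 0.0465; range 4.3e-06 to 0.999). The *hsp-16* genes are near-identical in part, and shared reads were left out. Of 18 genes of the list, 4 fell and 1 rose without replicate 1, where 1.57% of all genes fell and 1.86% rose. The other 2 that fell were the inducible Hsp70 genes *F44E5.4* (-1.55, adjusted p = 0.0342; range 0.000464 to 0.999) and *hsp-70* (-1.41, adjusted p = 0.0481; range 0.000512 to 0.999), and the 1 that rose was *hsp-1*, the constitutive Hsp70 (0.61, adjusted p = 0.0296; range 4.08e-07 to 0.999). In *gsr-1a* animals *hsp-16.41* was at 0.609, 4.94 and 2.72 CPM and *hsp-16.2* at 1.13, 3.66 and 3.99 CPM, and neither differed from *trxr-2* by a called amount (log2 difference -0.63, interval -2.25 to 1.0, and 0.08, interval -1.30 to 1.45).

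With *trxr-2* and wild type paired by replicate number, 83 of 13935 genes rose (0.596%) and 18 fell (0.129%). Collagens of the cuticle made up 28 of the 83. Of 134 cuticle collagen genes tested in that fit, 28 rose and 0 fell, 116 had a positive log2 fold change, and the median was 0.63, against 0.01 over all genes. In 99 of the 134 the ratio of *trxr-2* to wild type was above 1 in all 3 pairs (73.9%), which held for 18.1% of all genes, and the median log2 ratio of the list was 0.58, 0.44 and 0.57 in replicates 1, 2 and 3. With 1 replicate number left out, 60, 40 and 44 collagens were called higher (without numbers 1, 2 and 3). Over all genes these fits, with 1 residual degree of freedom, called 958 of 14005, 286 of 13922 and 617 of 13913 higher. The larger collagen counts therefore came with more calls over all genes. With all 12 libraries unpaired, *col-92* alone was called of 142 tested, although 124 had a positive log2 fold change (median 0.58).

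*col-133* had 41.3, 37.3 and 32.2 CPM in *trxr-2* animals, against 8.27, 11.7 and 7.84 CPM in wild type. All 3 mutant values were above every wild-type value, with a log2 fold change of 2.06 in the paired fit (adjusted p = 0.000673; with all libraries 0.836, range 2.09e-15 to 0.999). *col-94*, on chromosome III like *col-92*, had 112.2, 122.8 and 145 CPM in *trxr-2* animals, against 51.8, 62.4 and 69.4 CPM in wild type and was also called without replicate 1 (paired 1.11, adjusted p = 0.00377; without replicate 1 1.05, 0.00136; range 5.09e-16 to 0.999). *bli-1*, a collagen of the struts of the adult cuticle, had 2.71, 6.7 and 9.75 CPM in *trxr-2* animals, against 0.58, 1.91 and 3.61 CPM in wild type, higher in every pair while the groups overlapped (1.80, adjusted p = 0.0193; range 0.000182 to 0.999). *col-17* (1.71, adjusted p = 0.00904; range 1.16e-05 to 0.999) and *dpy-5* (1.48, adjusted p = 0.00904; range 2.2e-06 to 0.999) rose too, the second, which sets body shape, with 14.3, 20.2 and 25 CPM in *trxr-2* animals, against 4.21, 9.31 and 9.31 CPM in wild type. *sqt-1*, *dpy-13* and *rol-6*, further body shape collagens picked after their values were seen, rose by 1.42, 1.36 and 1.29 (adjusted p = 0.0186, 0.0172 and 0.0441; ranges 8.38e-05 to 0.999, 5.19e-06 to 0.999 and 0.000184 to 0.999). In *gsr-1a* the same genes varied widely between libraries, as *col-133* with 56.3, 16.3 and 8.04 CPM and *dpy-5* with 60.2, 30.9 and 7.93 CPM, and *col-133* and *bli-1* were not called against *gsr-1a* (adjusted p = 1 for both, with log2 differences of 0.47, interval -0.83 to 1.77, and -0.05, interval -1.53 to 1.43).

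Collagens did not all move together. Without replicate 1, 12 of 139 rose and 8 fell, where 1.86% of all genes rose and 1.57% fell. *dpy-17* had 117, 49.3 and 71.5 CPM in *trxr-2* animals, against 73.5, 144 and 150.1 CPM in wild type. For *dpy-14* the levels were 115.3, 34.2 and 43.3 CPM in *trxr-2* animals, against 79.2, 122 and 118 CPM in wild type. *col-121* had 13.1, 2.69 and 3.61 CPM in *trxr-2* animals, against 9.21, 12.6 and 11.9 CPM in wild type. In these 3, picked after their values were seen, *trxr-2* was above wild type in replicate 1 and below it in replicates 2 and 3. The log2 fold changes without replicate 1 were -1.25, -1.60 and -1.92 (adjusted p = 0.0254, 0.00419 and 0.00385), and none was called with the numbers paired (0.442, 0.279 and 0.28; ranges 0.000112 to 1, 1.53e-16 to 0.999 and 1.38e-06 to 0.999).

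**Figure D3:**
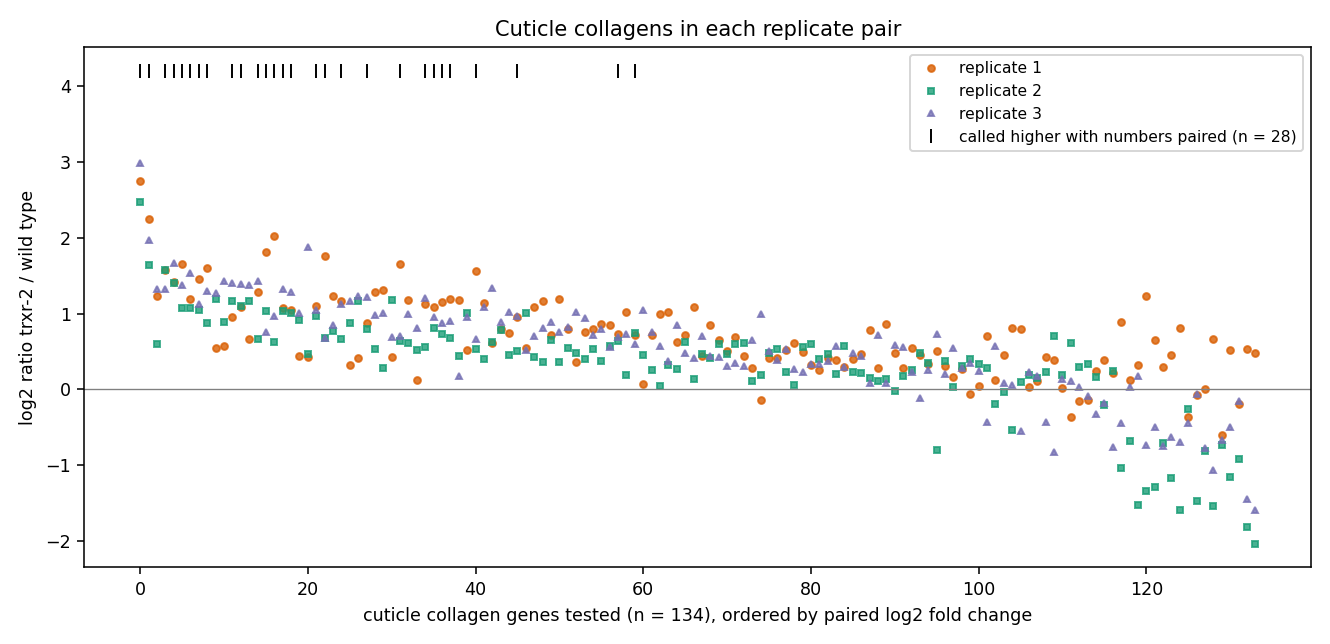
The 134 cuticle collagen genes of the paired fit are ordered by their log2 fold change from left to right, with the log2 ratio of *trxr-2* over wild type in each of the 3 replicate pairs on the vertical axis and ticks along the top for the 28 that were called higher. In 99 genes all 3 pairs lie above 0, and toward the right end replicate 1 lies above 0 in genes where replicates 2 and 3 lie below it.

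Other genes that rose with the numbers paired were *cdh-10*, a cadherin gene, with 2.33, 3.48 and 5.32 CPM in *trxr-2* animals, against 0.508, 1.25 and 2 CPM in wild type (1.67, adjusted p = 0.0418; range 0.00529 to 0.999), *E01G4.6* (1.43, adjusted p = 0.00904; range 3.9e-05 to 0.999) and *ZK180.6* (1.58, adjusted p = 0.0226; range 0.000274 to 0.999). A group of weakly expressed genes fell. *try-8*, which encodes a protease related to trypsin, had 0.451, 1.91 and 1.98 CPM in *trxr-2* animals, against 1.31, 5.39 and 9.65 CPM in wild type. *K03D3.5* was at 0.301, 0.328 and 0.409 CPM in *trxr-2* animals, against 1.09, 1.85 and 3.12 CPM in wild type. Both were lower in every pair. Their log2 fold changes were -1.76 and -2.42 (adjusted p = 0.0341 and 0.0422; ranges 0.000778 to 0.999 and 0.00382 to 0.999), and *F26D2.16* and *T16G12.10* fell by a like amount (-2.0 and -2.10, adjusted p = 0.0216 and 0.0483; ranges 3.13e-05 to 0.999 and 0.00529 to 0.999). In the double mutant *try-8* was at 58.6, 12.7 and 60.1 CPM and *K03D3.5* at 21.1, 3.14 and 15 CPM.

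Some lists moved in opposite directions between the replicate pairs. Over 26 major sperm protein genes the median log2 ratio was 0.86 in replicate 1, -0.36 in replicate 2 and -0.86 in replicate 3, and with all libraries the median was -0.06 and *msp-76* alone was called. Over 63 other genes of sperm formation the ratios were 0.55, -0.19 and -0.68. The 6 yolk protein genes were higher in all pairs, with medians of 2.11, 0.68 and 0.40, and none was called with all libraries. The 38 genes of muscle contraction had 0.47, 0.47 and -0.28, and 49 neuronal genes 0.20, 0.07 and -0.28. Genes of early zygotic embryos, 41 in number, had -0.37, -0.11 and -0.07, and all 48 genes of the list in the files took at most 0.051% of the counts of any *trxr-2* library.

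**Figure D4:**
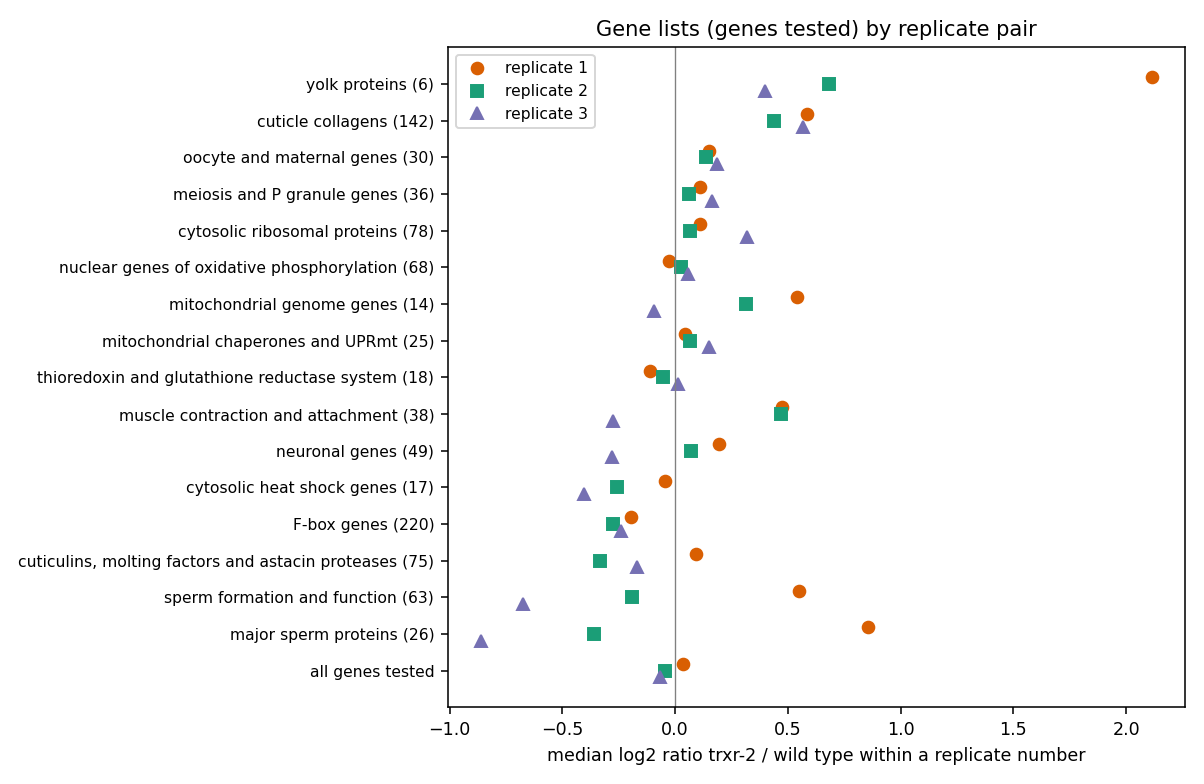
For each gene list (number of genes tested in brackets) the median log2 ratio of *trxr-2* over wild type is drawn for replicate pairs 1, 2 and 3 as a circle, square and triangle. Cuticle collagens lie at 0.44 to 0.58 in all 3 pairs and F-box genes at -0.28 to -0.20, while major sperm proteins run from 0.86 in replicate 1 to -0.86 in replicate 3.

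The other genes of the thioredoxin and glutathione reductase systems did not change by a called amount. Of 18 tested, *trxr-2* alone was called, in all 3 fits, and the median log2 fold change was -0.05 with all libraries. Over all genes 0.0333% were called in each direction with all libraries. The shares higher and lower were 1.86% and 1.57% without replicate 1 and 0.596% and 0.129% with the numbers paired. The cytosolic reductase *trxr-1* had 173, 151 and 157 CPM in *trxr-2* animals, against 178, 159 and 154 CPM in wild type. Its log2 fold change was -0.03 with a 95% interval of -0.27 to 0.21. *trx-2* had 68.8, 45.8 and 44.5 CPM in *trxr-2* animals, against 65.5, 51 and 50.5 CPM in wild type (log2 fold change -0.07, interval -0.48 to 0.34), and the mitochondrial peroxiredoxin *prdx-3* had 267, 203 and 211 CPM in *trxr-2* animals, against 296, 198 and 199 CPM in wild type (-0.03, -0.42 to 0.37). *gsr-1*, the gene of glutathione reductase, had 282, 262 and 287 CPM in *trxr-2* animals, against 342, 254 and 261 CPM in wild type (-0.05, -0.33 to 0.24). The intervals of the 4 genes include 0. *nnt-1*, the transhydrogenase that makes NADPH in mitochondria, was the member with the least even values, 23.3, 3.74 and 4.02 CPM in *trxr-2* animals, against 8.05, 8.49 and 5.75 CPM in wild type, higher in replicate 1 and lower in replicates 2 and 3 (adjusted p = 0.877 with all libraries and 0.0897 without replicate 1; range 0.064 to 0.999).

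Of 25 genes of mitochondrial chaperones, import and the UPRmt, 0 were called with all libraries, beside 0.0333% of all genes in each direction. Their median log2 fold change was 0.02. The mitochondrial Hsp70 *hsp-6*, a standard reporter of the response, had 493, 936 and 1001 CPM in *trxr-2* animals, against 243, 729 and 648 CPM in wild type. It was higher in every pair, by 0.59 with all libraries (interval -0.20 to 1.37, adjusted p = 0.843), 0.52 without replicate 1 (adjusted p = 0.0451) and 0.73 with the numbers paired (adjusted p = 0.0627; range over the alternatives 6.51e-05 to 0.999). The chaperonin *hsp-60* had 321, 618 and 709 CPM in *trxr-2* animals, against 187, 489.6 and 448 CPM in wild type, also higher in every pair, and passed in none of the 3 fits (adjusted p = 0.851, 0.0841 and 0.0639; range 0.00105 to 0.999). *jmjd-3.1*, a histone demethylase that the response needs, had 14.6, 16.9 and 14.9 CPM in *trxr-2* animals, against 11.1, 26.8 and 27.3 CPM in wild type and fell without replicate 1 (-0.73, adjusted p = 0.0302; range 0.0046 to 1). In *gsr-1a* *hsp-6* was at 933, 679 and 816 CPM, and the difference of *trxr-2* from it was 0.00 (interval -0.78 to 0.78).

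**Figure D5:**
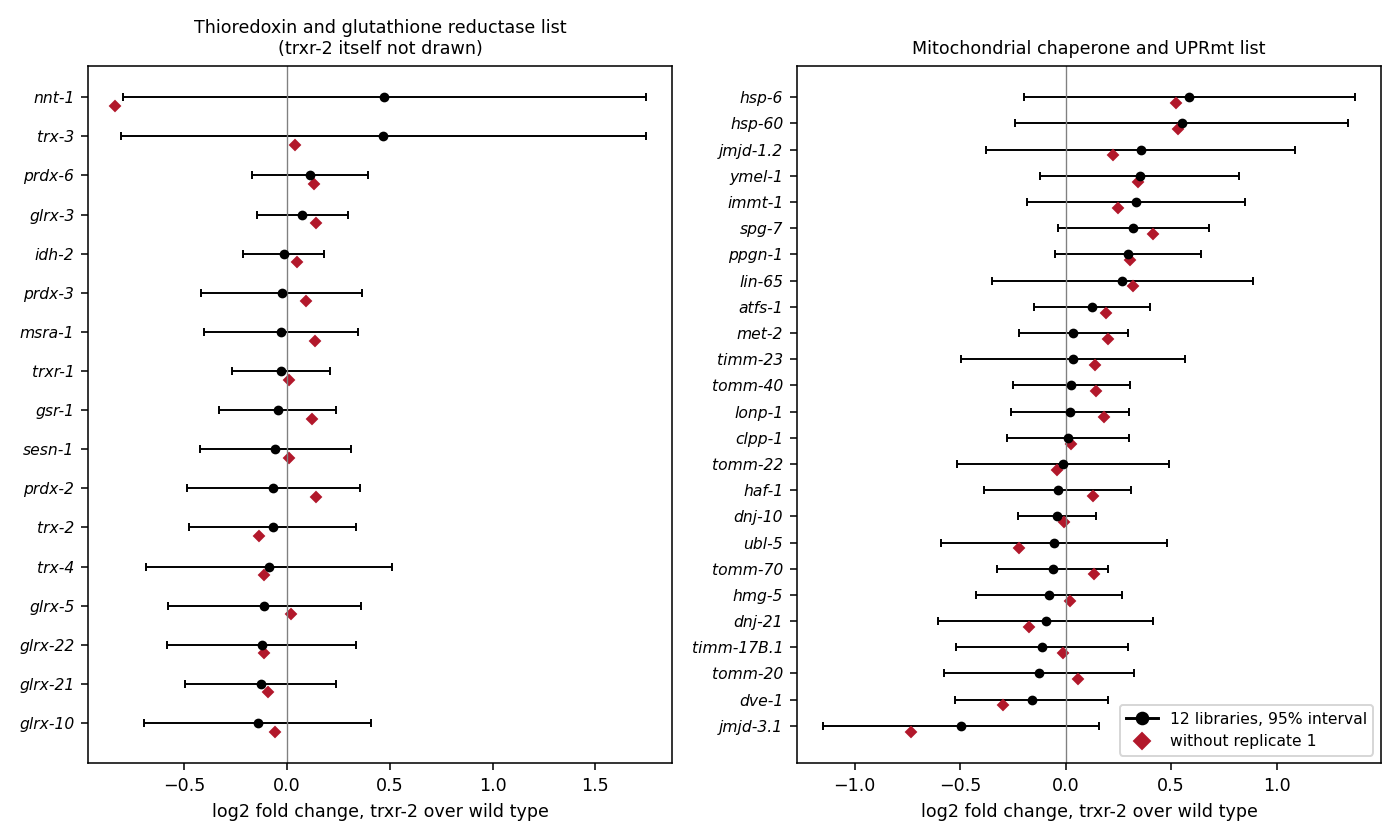
Black points and bars give the log2 fold change of *trxr-2* over wild type with its 95% interval from the fit of all 12 libraries, for the 17 other genes of the thioredoxin and glutathione reductase list (left) and the 25 of the mitochondrial chaperone and UPRmt list (right), and red diamonds the values without replicate 1. All 42 intervals include 0, and in *hsp-6* the red diamond at 0.52 lies close to the black point at 0.59.

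Other lists of oxidative stress and mitochondria held few or no calls. Of 40 glutathione S-transferases, 14 superoxide dismutases, catalases and glutathione peroxidases, 14 genes of mitochondrial fission, fusion and mitophagy and 70 mitochondrial ribosomal proteins, 0 were called in any of the 3 fits, with medians of -0.04, -0.03, -0.09 and -0.03 with all libraries. Over all genes 0.0333% were called in each direction with all libraries. The shares higher and lower were 1.86% and 1.57% without replicate 1 and 0.596% and 0.129% with the numbers paired. The counts of 0 were not tested against these shares. Of the genes of glutathione synthesis and sulfur amino acids, 0 of 25 were called with all libraries and 1 of 26 rose without replicate 1, beside 1.86% of all genes. Among 68 nuclear genes of oxidative phosphorylation, 4 rose without replicate 1, where 1.86% of all genes rose, and 0 in the other fits (median 0.07 without replicate 1 and 0.01 with all libraries). In replicate 2 this list took 1.69% of the counts in *trxr-2* and 1.74% in wild type. Its summed level there was higher in *trxr-2* only after the TMM scaling. The 14 genes of the mitochondrial genome had a median of 0.39 with all libraries, with no call, and the share of the counts of all 36 mitochondrial genes in the files was 0.729%, 0.219% and 0.231% in *trxr-2* and 0.612%, 0.266% and 0.264% in wild type.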

How the data were processed

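Per the study's methods and labels, reads of stranded polyA libraries were aligned to WBcel235 with HISAT2 and counted with featureCounts 2.0.0 on Ensembl 97 genes, and the authors deposited 1 file of raw counts for each library (46904 gene identifiers, 93.8% matched to a symbol). Counting over whole gene spans without multiply mapped reads lowers the counts of near-identical genes. The counts were tested with edgeR 4.0.16 (R 4.3.3, limma 3.58.1) by TMM scaling, filterByExpr and the quasi-likelihood F-test over all 12 libraries, with 1 mean per strain (8 residual degrees of freedom), and p-values were adjusted by Benjamini-Hochberg over all genes tested with a threshold of 0.05. The fit without the replicate 1 libraries left 4 degrees of freedom, and that of *trxr-2* and wild type paired by number left 2. Log2 ratios within a number add 0.5 CPM. DESeq2 1.42.0, a likelihood ratio test, RLE scaling, other filters, a replicate block and leaving out libraries were alternatives.

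The numbers were taken to pair the libraries because deviations from the strain means correlated between same-numbered *trxr-2* and wild-type libraries (0.54, 0.34 and 0.27 for replicates 1, 2 and 3). The file headers give same-numbered libraries the same date code, without saying what was done then. Replicates 2 and 3 were not told apart by this check (0.38 and 0.29 across numbers), so that which of them pair rests on the labels. Supplementary tables of the study number the wild-type and double mutant libraries in another order, shifted alike in both strains, and the labels were followed.

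Genes named were those called with all libraries, the 10 with the largest rise and fall without replicate 1 and with the block (mean of at least 1 CPM, 1 sign in all pairs), up to 4 per list by smallest p, the thioredoxin and UPRmt lists, and genes within 100000 bases of *trxr-2*, and not every such gene is printed. Applying that rule to the paired fit was added after values were seen. Members and the 42 gene lists were chosen with earlier results of these data known. The fits with all libraries, without replicate 1 and paired were run on simulated counts with known changes. Of 100 genes changed by 1 on the log2 scale, 40 were called with all libraries and 7 without replicate 1. The paired fit called 15 of 99. At a change of 2 the calls were 91, 77 and 84 of 100, and 0, 2 and 7 unchanged genes were called. The simulated counts held no replicate effect, so that they could not test how the fits deal with replicate 1 or with pairing.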

Additional observations from a re-analysis of the deposited data

How the results depend on the processing

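With all libraries 5 genes were higher and 5 lower in *trxr-2*. DESeq2 gave 13 and 8, the likelihood ratio test 12 and 10, and the 6 libraries alone 2 and 2. RLE scaling, no filter and a filter of more than 1 CPM gave 6 and 5. Leaving out 1 library gave 2 to 5 higher and 5 to 7 lower. With a replicate block in all 12 libraries the counts were 4 and 5, and with the block in the 6 libraries 83 and 18. That paired fit gave 958 and 542 without number 1, 286 and 33 without number 2 and 617 and 66 without number 3, which were added after the data were seen and leave 1 residual degree of freedom, and its collagens called higher numbered 28, against 60, 40 and 44. Without replicate 1 the counts were 281 and 238, with the 2 strains alone 862 and 506, and with DESeq2, added after the data were seen, 623 and 267. Of the 10 called genes 5 differed from *gsr-1a*, and 4 to 6 did under the added alternatives, while DESeq2 called 9 higher and 16 lower there. Signs changed at 6 genes, none of them called with all libraries. *gsr-1* (-0.05) was at 0.0068 with DESeq2, 0.0064 with RLE, 0.011 with the filter of 1 CPM, 0.012 in the 6 libraries alone, 0.025 paired, 0.12 without replicate 1 and 0.14 there with the 2 strains alone, paired or by DESeq2. *trxr-1* (-0.03) was at 0.020 with DESeq2, 0.019 with RLE, 0.026 with the filter and in the 6 libraries alone, 0.029 paired, 0.032 paired without number 2, 0.0075 without replicate 1, and there 0.021 with the 2 strains alone or paired and 0.022 by DESeq2. *prdx-3* (-0.03) was at 0.022 with DESeq2, 0.021 with RLE, 0.024 with the filter, 0.025 in the 6 libraries alone, 0.047 paired, 0.00816 paired without number 2, 0.091 without replicate 1, and there 0.10 with the 2 strains alone or paired and 0.11 by DESeq2. *nnt-1* (0.47) was at -0.84 without replicate 1, and there at -0.82 with the 2 strains alone, -0.81 paired and -0.83 by DESeq2. *noah-1* was at 0.036 when paired without number 2. Leaving out 1 library gave -0.12 to 0.11 for *gsr-1*, -0.090 to 0.036 for *trxr-1*, -0.30 to 0.063 for *trx-2* (-0.07), -0.16 to 0.19 for *prdx-3* and -0.93 to 0.86 for *nnt-1*. The causes were not tested. Of 1379 log2 fold changes of 69 named genes under all alternatives, 45 had another sign (6 genes), 24 lost the call, 284 gained it and 1026 did neither.

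Limits are the 3 libraries per strain, the replicate 1 libraries that stand apart in both strains, and the 1 to 8 residual degrees of freedom. Depth of 12114187 to 19688212 counts leaves genes near 1 CPM on few reads, and counting intervals and floors cover counting error only. Calls that rest on the fits without replicate 1 or with numbers paired were mostly not made with all libraries.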
